A study of Homo sapiens with 9 samples.

Results

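The p53 target genes examined here are 36 genes whose transcription p53 raises, and they were read on 9 one-colour expression arrays of RKO, a colorectal cancer cell line. They were chosen by gene name as established p53 targets, and the brightest of a gene's probes over the 9 arrays stood for it. The 36 genes had 51 of the 50599 probes, and 36 of the 36337 gene names on the array. The siRNA groups of 2 arrays each were siCONT (control siRNA for 72 h, then ethanol as mock), siUHRF1 (siRNA against UHRF1 for 72 h, then mock), siCONT + TSA and siUHRF1 + TSA (the same siRNAs, then 300 nM trichostatin A, a histone deacetylase inhibitor, for 24 h). Depletion used a different siRNA in each replicate, siUHRF1-1 in the first and siUHRF1-2 in the second. A further array came from cells given 1 µM 5-aza-2′-deoxycytidine (5-aza-dC, an inhibitor of DNA methyltransferases) for 72 h with no siRNA. The labels do not say that arrays of a group came from separate cultures, so the p-values measure the spread between these samples, which may be technical. In the main fits all groups share a single estimate of that spread. It includes the difference between the 2 siRNAs in the siUHRF1 groups, also where only siCONT groups are compared.

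p53 is a transcription factor that is stabilized when DNA damage or other stress frees it from MDM2, a ubiquitin ligase that is also its target. Its targets arrest the cell cycle, repair DNA, start apoptosis through membrane receptors and mitochondria, and shut p53 off again. p53 binds a pair of short half-sites, and most of its targets have other activators too. UHRF1 binds hemimethylated CpG sites behind the replication fork, where it brings in the maintenance methyltransferase, and histone deacetylases close chromatin at methylated promoters. The comparisons asked how far these genes moved when UHRF1 was depleted, histone deacetylases were inhibited, or both. DNA methylation and histone acetylation were not measured on these arrays.

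Promoter windows of 27 of the 36 genes were found in the RefSeq table (build GRCh38.p14), each with 250 bases before and 50 bases after the gene's start. The p53 half-site consensus, a motif of 10 bases that reads the same on both strands, matched in 6 of the 27 windows (22.2%) and in 6.63% of all 35116 windows. GGGCGG or its complement was found in 21 of the 27 windows (77.8%) and in 45% of all windows, and the median number of CpG dinucleotides was 21 in these genes and 14 in all windows. A pair of half-sites at most 13 bases apart was found in 1 window, that of DDB2, and lay after the gene's start. Upstream half-sites stood in SESN1, PLK2, AEN and RPS27L, and they are shown with neighbouring bases because their genes went different ways below (half-site in capitals, 30 bases each, 5′ to 3′ along the gene's strand).
SESN1, chr6:109009018-109009047, minus strand: attgtcgtctGGACAAGTCTccacaagtca
PLK2, chr5:58460199-58460228, minus strand: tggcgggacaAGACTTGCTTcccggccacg
AEN, chr15:88621296-88621325, plus strand: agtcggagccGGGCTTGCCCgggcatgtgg
RPS27L, chr15:63157517-63157546, minus strand: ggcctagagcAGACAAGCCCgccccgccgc
The matches describe these letters only, and binding was not measured on these arrays.

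Of the 36 genes, 30 were well above background on all 9 arrays. EDA2R and CMBL were well above background on 2 arrays each, TNFRSF10C and SPATA18 on the 5-aza-dC array alone, and ABCA12 and PADI4 on none. The fit of the 8 siRNA arrays therefore tested 30 of the genes among 17721 gene names, and the fit that added 5-aza-dC tested 33 among 20261. TNFRSF10C, SPATA18 and EDA2R entered the latter only through the array on which they were high, so they were bound to differ there. Levels are log2 signals relative to each array's 75th percentile. Replicates differed by a median of 0.0511 (absolute log2 difference over the 36 genes) in siCONT, 0.303 in siUHRF1, 0.0643 in siCONT + TSA and 0.126 in siUHRF1 + TSA, so the pairs that carried 2 different siRNAs were less alike.

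RKO was checked against markers of its tissue. The keratins KRT8 and KRT18 and the intestinal factors CDX1 and CDX2 were well above background on all 9 arrays, as was the mesenchymal filament gene VIM. CDH1, VIL1 and LGALS4 were above background on none, EPCAM on 2 and KRT19 on 3. The endothelial marker PECAM1 was above background on no array. Of the leukocyte markers, PTPRC was above background on 6 arrays and CD3E on the 5-aza-dC array alone. UHRF1 itself had levels of 2.69 and 2.70 in siCONT, 0.37 and 0.08 in siUHRF1, 2.88 and 2.87 in siCONT + TSA, and -0.33 and -0.61 in siUHRF1 + TSA. Depletion gave it a log2 fold change of -2.47 relative to control (adjusted p = 0.00239 from limma), and both siRNAs lowered it. A gene was called at an adjusted p below 0.05.

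**Figure D1:**
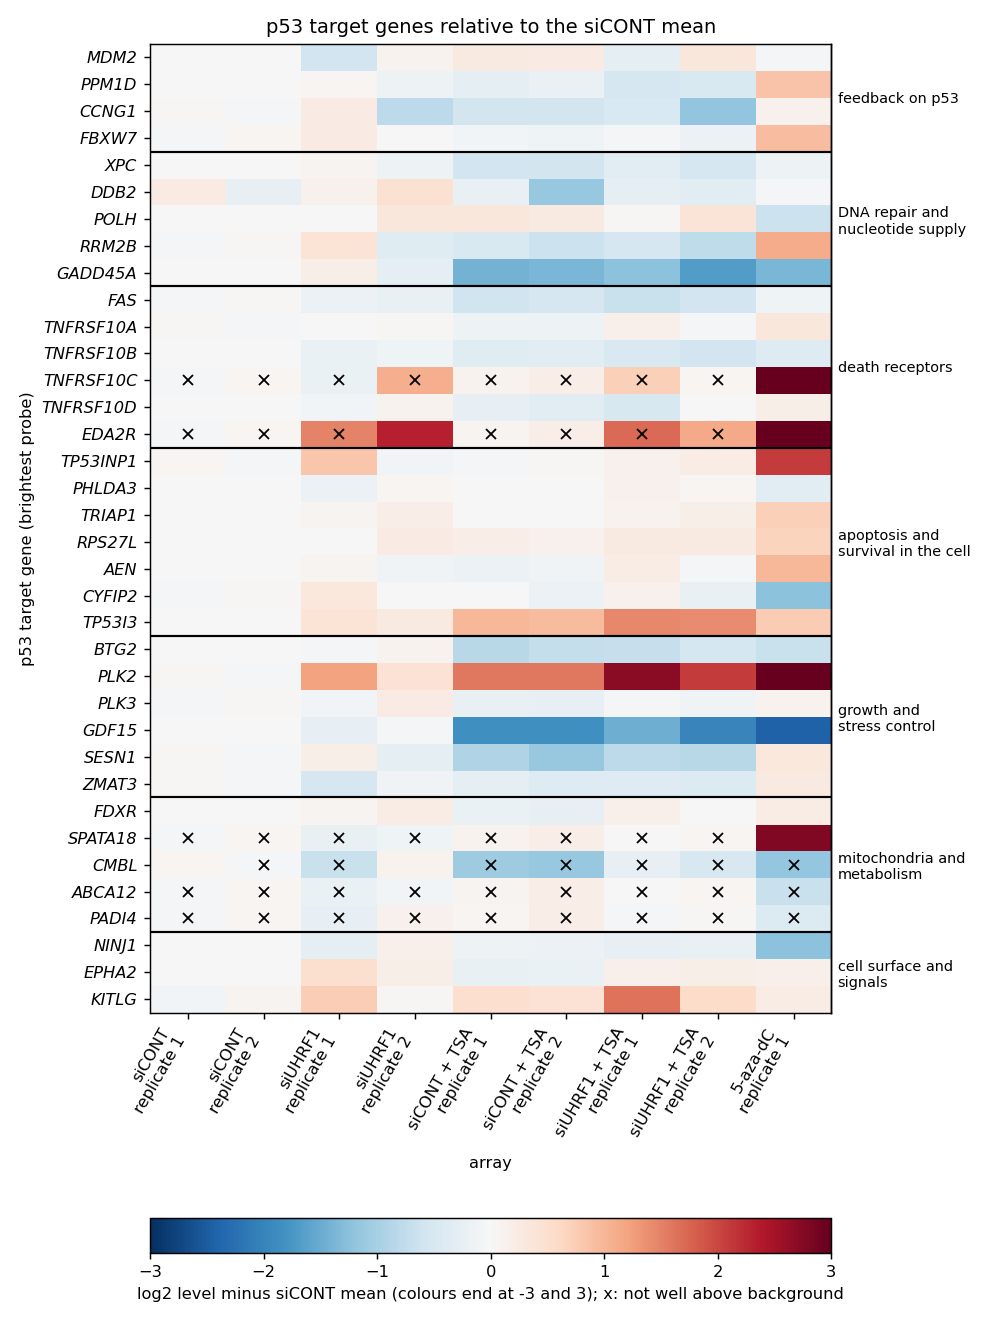
The heat map shows the log2 level of each of the 36 p53 target genes minus its mean in siCONT, 1 column for each array and 1 row for each gene, ordered by role. Crosses mark arrays on which the probe was not well above background. GDF15 and GADD45A are blue and PLK2 and TP53I3 are red in all 4 TSA columns, and the 5-aza-dC column holds the deepest colours.

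UHRF1 depletion alone changed none of the 30 tested p53 target genes past the threshold. Of all gene names tested, 0.626% were called higher and 0.0282% lower. In such bulk RNA, a change in cells of a kind and a change in RNA per cell cannot be told apart. The median log2 fold change was 0.02 over the 30 genes and -0.003 over all gene names. In 6 of the 30 genes both siUHRF1 arrays lay above both siCONT arrays, and in 4 both lay below, against 20% and 17.1% of all gene names. At an unadjusted p below 0.05 from limma, 3 of the 30 genes passed, all higher, against 8.91% of all gene names. They were TP53I3, an oxidoreductase that raises reactive oxygen in apoptosis (0.34, standard error 0.09, adjusted p = 0.335 from limma), PLK2, a kinase of centriole duplication and the stress response (0.82, standard error 0.29, adjusted p = 0.481), and EPHA2, an ephrin receptor (0.33, standard error 0.12, adjusted p = 0.475). The 95% interval of the change was 0.11 to 0.57 for TP53I3, 0.11 to 1.54 for PLK2 and 0.05 to 0.62 for EPHA2, before any adjustment. PLK2 had levels of -0.45 and -0.51 in siCONT, of 0.74 with siUHRF1-1 and of -0.05 with siUHRF1-2, so the siRNAs differed from each other by more than the control arrays did.

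CDKN1A, the p53 target that encodes the cyclin-dependent kinase inhibitor p21, was at 0.25 and 0.22 in siCONT and at 0.54 and 0.78 in siUHRF1. Its log2 fold change of 0.42 (standard error 0.12) missed the threshold (adjusted p = 0.334 from limma). MDM2 was at 0.86 and 0.89 in siCONT, at 0.30 with siUHRF1-1 and at 0.98 with siUHRF1-2, so its siUHRF1 values lay on both sides of the control. MDM4, which binds and inhibits p53, had a log2 fold change of -0.13 (adjusted p = 0.878). EDA2R, a receptor of the TNF receptor family, was well above background on the siUHRF1-2 array at -4.03 and on no other siRNA array.

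TSA alone lowered 6 and raised 2 of the 30 p53 target genes. In siCONT + TSA against siCONT, 3.88% of all gene names tested were called lower and 6.94% higher. GDF15, GADD45A, SESN1, BTG2, FAS and XPC fell, and PLK2 and TP53I3 rose. The median log2 fold change was -0.22 over the 30 genes and 0.08 over all gene names. In 20 of the 30 genes both TSA arrays lay below both siCONT arrays, and in 6 both lay above, against 30% and 47.1% of all gene names. At an unadjusted p below 0.05, 10 of the 30 genes passed, against 29.6% of all gene names. All the calls were lost in some of the fits that left out 1 of the 4 arrays compared. Such a fit leaves a group with 1 array and also changes the estimate of the spread that all groups share. Directions of all 8 were kept in each of the 24 alternatives tried, and with spike-in scaling 3 were lower and none higher. That scaling shifted the median of all gene names by -0.186, so the shares above do not apply to it. The mesenchymal marker VIM also rose with TSA, with a log2 fold change of 2.88 (adjusted p = 0.000893 from limma), from -0.38 and -0.42 to 2.50 and 2.46. COL1A1 and DCN, the other 2 mesenchymal markers, were not called (1.32 for COL1A1), and DCN was below background in both groups. The epithelial markers KRT8 and KRT18 were not called, and KRT19 was below background in both groups. The markers' part in the p53 target result was not tested.

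Among growth and stress regulators, GDF15, a secreted stress cytokine of the TGF-beta family, gave the deepest fall. Its levels were 7.84 on both siCONT arrays and 6.008 and 5.997 on the siCONT + TSA arrays. It was 3.57-fold lower (log2 fold change -1.84, standard error 0.18, adjusted p = 0.00846 from limma). SESN1, which holds back mTORC1 and oxidative stress, went from -0.25 and -0.30 to -1.18 and -1.41 (log2 fold change -1.03, adjusted p = 0.0185), and with normexp background correction its change was -0.48 and not called. BTG2, an antiproliferative factor that helps to shorten mRNA tails, went from 3.13 and 3.12 to 2.29 and 2.41 (log2 fold change -0.77, adjusted p = 0.0151). In all 3 genes both TSA arrays were below both controls. PLK2 went the other way, from -0.45 and -0.51 to 1.09 and 1.10, and was 2.99-fold higher (log2 fold change 1.58, standard error 0.29, adjusted p = 0.0273). PLK3, a related kinase, was not called (-0.23, adjusted p = 0.282), nor was ZMAT3, an RNA-binding zinc finger gene (-0.35, adjusted p = 0.172).

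Among repair genes, GADD45A, a small protein of growth arrest and excision repair, went from 4.59 and 4.55 in siCONT to 3.16 and 3.20 with TSA. It was 2.62-fold lower (log2 fold change -1.39, standard error 0.20, adjusted p = 0.0154 from limma). XPC, which recognizes damage at the start of nucleotide excision repair, went from -0.04 and -0.09 to -0.63 and -0.61 (log2 fold change -0.55, adjusted p = 0.0361). With normexp background correction XPC was not called. DDB2, which finds ultraviolet damage in chromatin, was not called by its brighter probe (-0.69, adjusted p = 0.216), whose siCONT + TSA arrays stood at 3.86 and 2.93. Its second probe gave the same size of change with less spread and was called (-0.69, adjusted p = 0.015). RRM2B, a subunit of ribonucleotide reductase, and POLH, a polymerase that copies past damage, were not called.

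Of the 4 death and decoy receptors tested, FAS was called lower, from -0.03 and 0.05 in siCONT to -0.60 and -0.49 in siCONT + TSA (log2 fold change -0.55, adjusted p = 0.0236 from limma). Its change was -0.34 and not called with normexp background correction. All 3 FAS probes had negative changes, and the 2 dimmer ones missed the threshold in this comparison (adjusted p = 0.0763 and 0.0582). TNFRSF10B, the TRAIL receptor DR5, was at 3.997 and 3.982 in siCONT and at 3.62 and 3.65 with TSA, a log2 fold change of -0.35 that missed the threshold (adjusted p = 0.0632). TNFRSF10A and the decoy receptor TNFRSF10D were not called. In the group of genes that act on apoptosis inside the cell, TP53I3 rose from 2.60 and 2.63 to 3.61 and 3.57 (1.96-fold, log2 fold change 0.97, standard error 0.09, adjusted p = 0.00863). With normexp background correction TP53I3 was not called. The other 6, namely TP53INP1, PHLDA3, TRIAP1, RPS27L, AEN and CYFIP2, were not called. None of the 4 feedback genes was called, and the 4 probes of MDM2 had log2 fold changes from -0.41 to 0.27. The other feedback genes are PPM1D, CCNG1, a cyclin that recruits a phosphatase to MDM2, and FBXW7. CMBL, a hydrolase, was above background on 1 siCONT array and on no siCONT + TSA array, which gave a level at least 1.31-fold lower with TSA, and it was not tested.

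**Figure D2:**
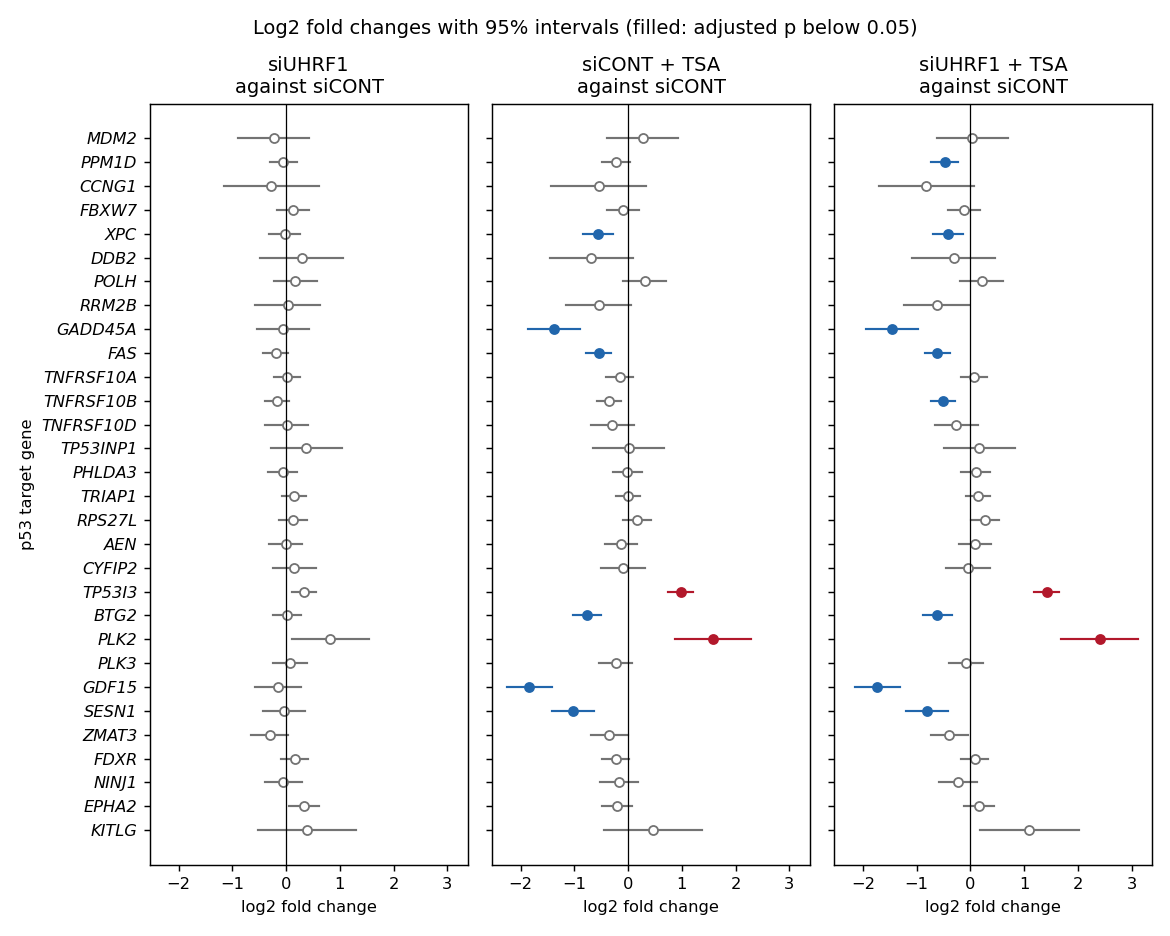
The 3 panels show the log2 fold change of each tested p53 target gene against siCONT with its 95% interval, for UHRF1 depletion, TSA and both. Filled points were called at an adjusted p below 0.05, blue for lower and red for higher. No point is filled for UHRF1 depletion, 8 are filled for TSA and 10 for both.

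UHRF1 depletion together with TSA lowered 8 and raised 2 of the 30 p53 target genes against siCONT, where 8.12% of all gene names were called lower and 16% higher. This comparison shares its control arrays with the 2 above. GDF15 (log2 fold change -1.73), GADD45A (-1.45), SESN1 (-0.80), FAS (-0.61), BTG2 (-0.61) and XPC (-0.42) were lower, as were TNFRSF10B (-0.51, adjusted p = 0.0123 from limma) and PPM1D (-0.48, adjusted p = 0.0228). PPM1D is the phosphatase Wip1, which switches off p53 and the kinases above it. PLK2 and TP53I3 were higher. The median log2 fold change was -0.10 over the 30 genes and 0.07 over all gene names. Without siCONT replicate 1 or without siCONT replicate 2, 4 of the 30 genes were called, and they were GDF15, GADD45A, TP53I3 and PLK2. Each of these 4 kept its call in 22 of the 23 alternatives, and lost it in the methods' t-test with Benjamini-Hochberg adjustment. The mesenchymal markers VIM (2.71) and COL1A1 (1.67) and the epithelial marker KRT18 (0.81) were called higher in this comparison, and KRT8 was not called. DCN (at least 1.23-fold higher) and KRT19 (at least 4.25-fold) were above background on the siUHRF1 + TSA arrays and on no other siRNA array, so they entered the fit through the group in which they were high and were bound to differ. The part of these markers in the p53 target result was not tested.

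PLK2 had levels of 2.23 and 1.62 with both treatments and was 5.30-fold higher than in siCONT (log2 fold change 2.41, standard error 0.29, adjusted p = 0.00386 from limma). TP53I3 stood at 4.05 and 4.02, and was 2.68-fold higher (log2 fold change 1.42, standard error 0.09, adjusted p = 0.000495). Both genes had the lowest mean in siCONT, then in siUHRF1, then in siCONT + TSA and the highest in siUHRF1 + TSA, and no array of one group overlapped with the next. The share of all gene names with this order was not counted. Both siUHRF1 arrays lay above both siCONT arrays in 20% of all gene names, and both siUHRF1 + TSA arrays above both siCONT + TSA arrays in 27.8%. Neither gene was called in these 2 steps. GDF15 stood at 6.37 and 5.86 with both treatments, on either side of its siCONT + TSA values. GADD45A stood at 3.34 and 2.89, again on either side. PPM1D went from 0.88 and 0.87 in siCONT to 0.61 and 0.69 with TSA and to 0.38 and 0.42 with both, and its second probe was also called lower with both (-0.41, adjusted p = 0.0267). The second probes of DDB2 (-0.62, adjusted p = 0.00806) and CYFIP2 (-0.86, adjusted p = 0.0294) were called lower too, while the brightest probes of these genes were not called. KITLG, the ligand of the receptor KIT, stood at -0.01 and -1.09 with both treatments and at -1.73 and -1.56 in siCONT, a wide spread with a log2 fold change of 1.10 (adjusted p = 0.0848).

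**Figure D3:**
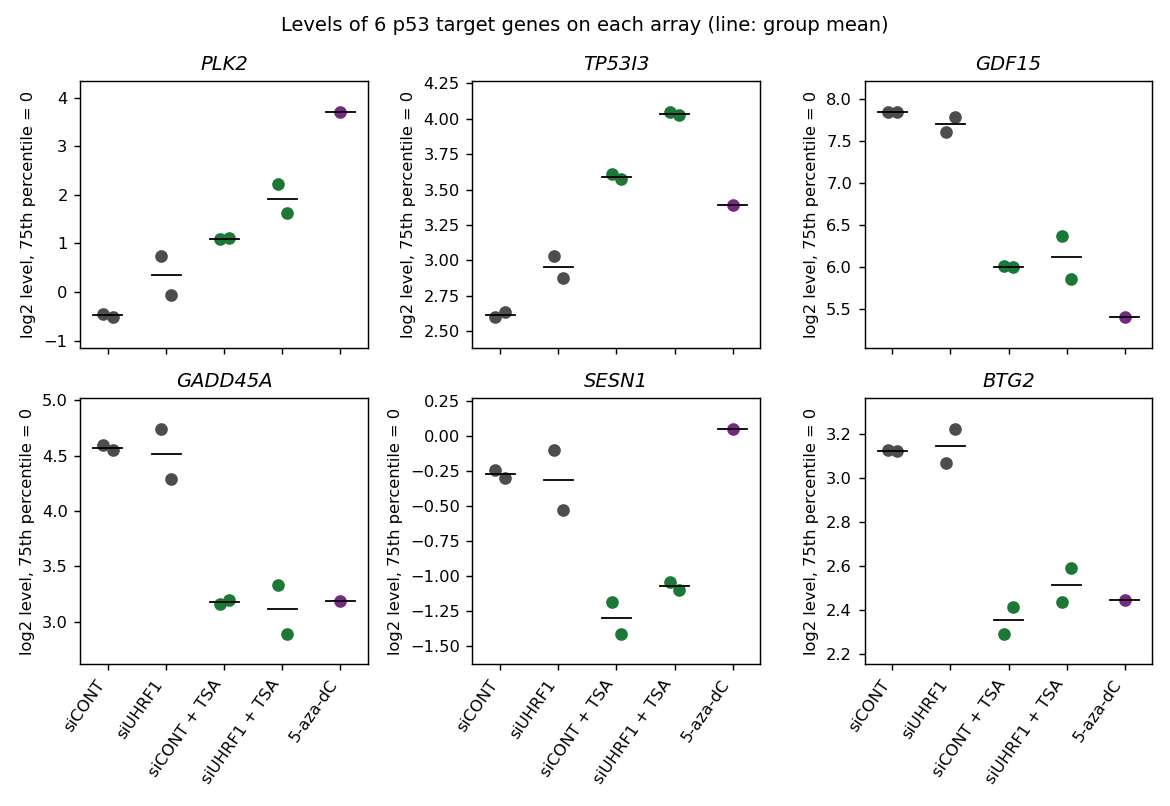
Each panel shows the log2 level (75th percentile of the array = 0) of 1 gene on each array, with a line at the group mean, in siCONT, siUHRF1, siCONT + TSA, siUHRF1 + TSA and 5-aza-dC. PLK2 and TP53I3 rise from left to right over the 4 siRNA groups, while GDF15, GADD45A, SESN1 and BTG2 are lower on all 4 TSA arrays than on all 4 mock arrays.

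Under TSA, UHRF1 depletion changed none of the 30 genes past the threshold, whereas 3.27% of all gene names were called higher and 0.559% lower. In 15 of the 30 genes both siUHRF1 + TSA arrays were above both siCONT + TSA arrays and in 3 both were below, against 27.8% and 27.1% of all gene names. The median log2 fold change was 0.11 over the 30 genes and -0.004 over all gene names. At an unadjusted p below 0.05, 4 of the 30 genes passed, all higher, against 17.9% of all gene names. TP53I3 came nearest to the threshold (log2 fold change 0.45, standard error 0.09, adjusted p = 0.0673 from limma), and it was called with a trended and robust prior. PLK2 changed by 0.83 (adjusted p = 0.224), EPHA2 by 0.37 (adjusted p = 0.182) and FDXR, a mitochondrial electron carrier, by 0.31 (adjusted p = 0.2). TP53I3 was also called without siUHRF1 replicate 1 and without siUHRF1 replicate 2. KRT19, again in the fit only through its high group, was at least 3.94-fold higher, KRT8, KRT18, VIM and COL1A1 were not called, and the markers' part in these values was not tested.

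The effect of UHRF1 depletion was also compared with and without TSA. None of the 30 p53 target genes was called in this difference, where 0.361% of all gene names were called higher and 0.0282% lower, and none of them reached an unadjusted p below 0.05 from limma, as 4.98% of all gene names did. The 30 differences ran from -0.26 to 0.27 on the log2 scale. For PLK2 the change with UHRF1 depletion was 0.82 without TSA and 0.83 with it. For TP53I3 the values were 0.34 and 0.45.

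In UHRF1-depleted cells, TSA lowered 6 and raised 2 of the 30 genes, where 5.45% of all gene names were called lower and 10.8% higher. GDF15 (log2 fold change -1.58), GADD45A (-1.40), SESN1 (-0.76), BTG2 (-0.63), PPM1D (-0.43) and FAS (-0.42) were lower, and PLK2 (1.58) and TP53I3 (1.09) were higher. XPC had a log2 fold change of -0.39 and TNFRSF10B one of -0.35, neither of which passed the threshold (adjusted p = 0.0714 and 0.0524 from limma). The second PPM1D probe was not called here (-0.26, adjusted p = 0.116). The second probes of DDB2 (-0.65, adjusted p = 0.0116) and CYFIP2 (-0.86, adjusted p = 0.0394) were called lower, and their brightest probes were not called. The arrays compared share an siRNA in each replicate. With a replicate block within each siRNA, PPM1D was not called, while XPC, CCNG1 (-0.55) and KITLG (0.71) were called, and with 1 block over all siRNA arrays FAS and PPM1D were not called. The median was -0.18 over the 30 genes and 0.08 over all gene names. Only GDF15, TP53I3 and GADD45A kept their call each time 1 of the 8 arrays was left out, and the number called was then 3 without siCONT replicate 1, siCONT replicate 2 or siUHRF1 + TSA replicate 1, 4 without siCONT + TSA replicate 2, 5 without siUHRF1 replicate 1, siCONT + TSA replicate 1 or siUHRF1 + TSA replicate 2, and 12 without siUHRF1 replicate 2. Of the markers, VIM (3.08) and KRT18 (0.56) were called higher in this comparison, and COL1A1 and KRT8 were not called. DCN (at least 1.37-fold higher) and KRT19 (at least 4.69-fold) were tested only through these siUHRF1 + TSA arrays. Their part in the p53 target result was not tested.

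**Figure D4:**
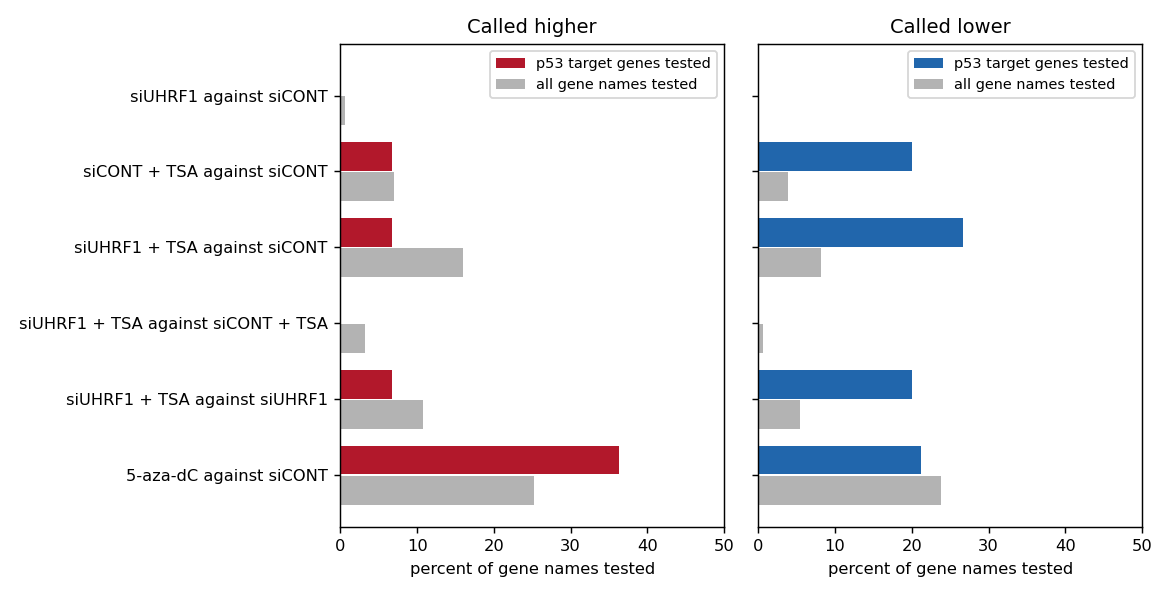
Bars give the percent of tested gene names called higher (left) or lower (right) in each comparison, coloured for the p53 target genes and grey for all gene names. In the 3 comparisons of TSA with mock, the coloured bars exceed the grey bars on the right and do not on the left.

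The array of cells given 5-aza-dC differed in 19 of the 33 tested p53 target genes, with 12 higher and 7 lower, where 25.2% of all gene names were called higher and 23.8% lower. Of the 30 genes that were also tested on the siRNA arrays, 9 were higher and 7 lower. This array came from a different slide and scan, and its cells had no siRNA, so the drug, the missing transfection, the slide and the scan cannot be told apart. It was the only array of its group and was assumed to vary like the others. Its signals were brighter throughout, with a 75th percentile of 814.6 against 244.3 to 336 on the siRNA arrays. Its spike-in probes stood 3.29 above their siCONT mean on the log2 scale, against -0.04 to 0.19 on the siRNA arrays. The cause was not tested, and which scaling holds cannot be told from this array. Scaled instead on these spike-in probes, the median of all gene names shifted by -1.75. The split became 4 higher and 27 lower among the 33 genes (6.87% and 79.4% of all gene names). The 4 were PLK2 with TNFRSF10C, SPATA18 and EDA2R, which entered the fit only through this array and were bound to differ. Of the markers, VIM (level 5.67, log2 fold change 6.07) and KRT19 (at least 13.3-fold) were called higher, and KRT8, KRT18, CDX1, CDX2 and COL1A1 were not called. EPCAM, at -0.10 with 5-aza-dC and above background on 1 of the 2 siCONT arrays, was called higher too, but was tested only through the 5-aza-dC array. Its log2 fold change of 4.69 is not an exact size, because 1 siCONT array was not above background. DCN (-1.21) was below background in both groups and was not called. The leukocyte markers PTPRC (1.52) and CD3E (at least 2.02-fold higher) were not called either, and CD3E was tested only through the 5-aza-dC array. The part of the markers in the p53 target result was not tested.

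Relative to the other genes on the array, PLK2 was 18.3-fold higher with 5-aza-dC (level 3.71, log2 fold change 4.19, standard error 0.37, adjusted p = 0.000434 from limma). It kept its call and direction with spike-in scaling, and its lowest log2 fold change over the 20 alternatives was 2.44. TNFRSF10C is a decoy receptor of TRAIL that lacks a death domain. It was at -0.23 with 5-aza-dC and below background on the siRNA arrays, which gave at least 16.9-fold. Its lowest log2 fold change over the alternatives was 2.435. EDA2R was at least 4.19-fold higher and SPATA18, a gene of mitochondrial quality control, at least 1.68-fold. With normexp background correction neither was called, and SPATA18 changed sign (-0.063). The lowest log2 fold change of EDA2R over the alternatives was 0.626. These lower limits set each siCONT array at its lowest signal called above background, or at the probe's own signal where that was higher. TP53INP1, which moves to autophagosomes and helps p53 to start apoptosis, had a log2 fold change of 2.10 and stood at 1.66, above all 8 siRNA arrays (-0.51 to 0.39), and with spike-in scaling it was not called (0.34).

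Smaller rises were found for RRM2B (1.12), AEN (1.00), a nuclease of apoptosis, FBXW7 (0.93), a ubiquitin ligase subunit, PPM1D (0.85), TP53I3 (0.77), TRIAP1 (0.72), an inhibitor of apoptosis, and RPS27L (0.67), a ribosomal protein relative that binds MDM2. All 7 of these changed sign under spike-in scaling. GDF15 was lower (log2 fold change -2.43, level 5.41), as were GADD45A (-1.38), CYFIP2 (-1.24), a regulator of actin, NINJ1 (-1.23), a membrane protein of adhesion and cell rupture, BTG2 (-0.68), POLH (-0.65) and TNFRSF10B (-0.40). RRM2B, POLH and TNFRSF10B were not called without siCONT replicate 1, siCONT replicate 2, siCONT + TSA replicate 1 or siCONT + TSA replicate 2. TNFRSF10B had -0.13 with normexp background correction and POLH -0.27 as the mean of its probes, neither called. SESN1, FAS and XPC, which fell with TSA, were not called here. For 4 of the genes called with 5-aza-dC the second probe was not called. The second PPM1D probe gave 0.02, that of POLH 0.12, that of CYFIP2 -0.40 (adjusted p = 0.242 from limma) and that of AEN 0.47 (adjusted p = 0.0803). MDM2 was not called by its brightest probe (-0.04), while its other 3 probes gave 0.52, 0.93 and 0.95, the last of them called (adjusted p = 0.0225). DDB2 was likewise not called by its brightest probe (-0.03), and its second probe was called lower (-0.39, adjusted p = 0.0369).

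Beside the 36 genes, 40 other p53 targets were examined, of which 34 were tested on the siRNA arrays. None was called with UHRF1 depletion, with or without TSA. With TSA 10 were lower and 1 higher, where 3.88% and 6.94% of all gene names were. With both treatments 11 were lower and 4 higher (8.12% and 16% of all gene names), and with TSA in UHRF1-depleted cells 8 were lower and 3 higher (5.45% and 10.8%). DDIT4, an inhibitor of mTORC1, gave the deepest fall in each (log2 fold change -1.66, -2.22 and -2.37). SESN2, a relative of SESN1, had -1.26 and -1.84 in the first 2 of these comparisons, DRAM1, a lysosomal autophagy gene, -1.07 and -1.10, and GLS2, a mitochondrial glutaminase, -1.05 and -1.15. TNFRSF6B, a decoy receptor for FAS ligand, had -1.19 with TSA. PMAIP1 and BBC3, which encode the apoptosis starters NOXA and PUMA, were lower with TSA as well (-0.77 and -0.54). SCO2, an assembly factor of cytochrome oxidase, was higher in all 3 comparisons (0.75, 0.99 and 0.98). With spike-in scaling the counts in these comparisons were 6 lower and none higher, 10 lower and 1 higher, and 9 lower and none higher. That scaling shifted the median of all gene names by -0.186, -0.167 and -0.176, so the shares above do not apply to these counts. CDKN1A was at -0.26 and -0.14 with TSA, below both siCONT values of 0.25 and 0.22, but was not called (log2 fold change -0.44, adjusted p = 0.069 from limma). With both treatments it was at 0.18 and 0.31, around the siCONT values (0.01). With 5-aza-dC, 10 of 35 were higher and 10 lower (25.2% and 23.8% of all gene names), among them DDIT4 (-2.58), GLS2 (-2.51), SESN2 (-2.12) and VCAN (at least 3.67-fold higher). VCAN entered only through the 5-aza-dC array and was bound to differ, and of the 34 genes without it 9 were higher and 10 lower. CDKN1A had a log2 fold change of 0.51 (adjusted p = 0.0331 from limma). With spike-in scaling none of the 35 was higher and 29 were lower, CDKN1A among them (-1.25), and VCAN was not called (0.55).

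Of 30 genes that regulate p53, 28 were tested on the siRNA arrays. PRKDC, the catalytic subunit of the DNA-dependent kinase, was the only one called with TSA (log2 fold change -0.58, adjusted p = 0.028 from limma), where 3.88% of all gene names were lower and 6.94% higher, and none was called with UHRF1 depletion (0.626% higher and 0.0282% lower). With both treatments CDKN2A (0.91), whose locus also encodes the MDM2 inhibitor ARF, KAT5 (0.68) and CREBBP (0.35), both acetyltransferases, were higher and PRKDC was lower (-0.63), where 16% of all gene names were higher and 8.12% lower. With spike-in scaling, which shifted the median of all gene names by -0.167, 1 was higher and 3 lower in that comparison. With TSA in UHRF1-depleted cells none of the 28 was called, PRKDC included (-0.39, adjusted p = 0.0604 from limma), and with spike-in scaling 1 was lower. With 5-aza-dC, 7 of 29 were higher and 9 lower, near the 25.2% and 23.8% of all gene names, led by CDKN2A (4.24), SIRT1 (1.38), a deacetylase of p53, MDM4 (-1.48) and RPL5 (-0.90), a ribosomal protein that binds MDM2. With spike-in scaling 1 was higher, CDKN2A (2.49), and 26 were lower, and SIRT1 stood at -0.37, not called. MDM4 was at 1.30 with 5-aza-dC and between 2.38 and 2.82 on the siRNA arrays.

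Cell cycle genes that p53 lowers through p21 and the DREAM repressor complex were read as a separate list of 20, all tested. With TSA 7 were higher and none lower, where 6.94% of all gene names were higher and 3.88% lower. PLK1 (log2 fold change 1.09), CCNB1 (1.07), BIRC5 (0.94) and AURKA (0.77) gave the highest values. With both treatments 7 were higher (16% of all gene names) and CDC25A was lower (-0.60), and with TSA in UHRF1-depleted cells 7 were higher (10.8%). None was called with UHRF1 depletion. With 5-aza-dC 12 were higher and none lower (25.2% and 23.8% of all gene names), led by CCNB1 (1.93), AURKA (1.53), CDK1 (1.30) and TTK (1.10). With spike-in scaling none was higher and 14 were lower with 5-aza-dC, where CCNB1 stood at 0.18 and AURKA at -0.22, neither called. The same scaling gave 3 higher and none lower with TSA, and 3 higher and 1 lower with both treatments. In UHRF1-depleted cells it gave 2 higher and none lower with TSA. It shifted the median of all gene names by -0.186, -0.167 and -0.176 in these 3 comparisons. The median over the list was 0.31 with TSA, against 0.08 over all gene names.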

How the data were processed

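Spot signals of 9 arrays (Agilent SurePrint G3 Human GE v2, 1 colour) were used. The authors extracted them with Feature Extraction 10.7.3.1, which subtracts background and removes spatial trends, and deposited them as linear intensities with no normalization between arrays. The study names GeneSpring GX for its analysis. The deposited table of processed values was used as an alternative.

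From log2 signals, the 75th percentile of the array was subtracted. Outlier spots by Agilent's marks were dropped, and repeated spots of a probe were averaged. Tested probes had to be well above background on both arrays of some group (or on the 5-aza-dC array). limma 3.58.1 in R 4.3.3 was fitted to 8 siRNA arrays (23703 probes), or to 9 for 5-aza-dC (27142 probes), with Benjamini-Hochberg adjustment over all probes, two-sided. The fit was tested on simulated data. Intervals of 95% are limma's. The number of arrays limits the precision.

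The p53 target genes, other lists and tests were chosen with earlier results of these data known. Named are the p53 target genes called or below background somewhere, UHRF1, MDM4 and CDKN1A, and up to 4 of the called genes of each other list in a comparison, from those with the largest change. Others were named after their values were seen, and 1 gene that the rule always names is not reported here. COP1, TIGAR, PIDD1 and SUSD6 were matched through older names. All 8 siRNA arrays shared 1 slide and 1 scan, with mock in row 1, TSA in row 2, siCONT in columns 1 and 2 and siUHRF1 in columns 3 and 4, so slide position and treatment cannot be told apart. Replicate numbers were not treated as pairs, because deviations of same-numbered arrays correlated between -0.047 and 0.080 except for siUHRF1 and siUHRF1 + TSA (0.466), where a number names an siRNA.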

Additional observations from a re-analysis of the deposited data

How the results depend on the processing

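The alternatives were other background corrections, scalings and filters, all spots kept, the deposited table, the mean of a gene's probes, other priors and tests, a replicate block, only the arrays compared, and each siRNA array left out. Of 991 values of genes called in a comparison, 800 kept the call, 183 kept only the direction and 8 changed sign. With normexp 4 of the 30 genes were called with TSA, with both treatments and with TSA in UHRF1-depleted cells (main counts 8, 10 and 8). Spike-in scaling gave 3 with TSA, 4 with TSA in UHRF1-depleted cells and 31 with 5-aza-dC, and it shifted the median of all gene names by -0.186, -0.176 and -1.754, and by -0.167 with both treatments. With 5-aza-dC, normexp shifted that median by -0.283 and the median of detected probes by 0.108. Without a filter on dim probes, 36 genes were tested and 3 and 4 were called with TSA in siCONT and in siUHRF1 cells. With only the arrays compared these counts were 21 and 2. The counts in this section stand without the share of all gene names called in the same setting. They show how the calls depend on the processing and are not read as particular to the p53 target genes. The trended and robust prior called 1 gene for UHRF1 depletion under TSA, and an unadjusted p below 0.05 called 4 there and 3 for UHRF1 depletion alone. The methods' t-test with a change over 2-fold called 4 with TSA, 4 with both treatments and 3 with TSA in UHRF1-depleted cells, and after Benjamini-Hochberg adjustment 10, 0 and 0. With each array left out, the calls ran from 0 to 1 for UHRF1 depletion, 0 to 12 for TSA, 4 to 14 for both, 0 to 3 for UHRF1 depletion under TSA, 3 to 12 for TSA in UHRF1-depleted cells, and 16 to 21 for 5-aza-dC, and they stayed at 0 for the difference. The 1 for UHRF1 depletion was EDA2R, and the 3 under TSA were TP53I3 with EDA2R and CMBL, which then entered through 1 array and are not read as calls. The highest counts for TSA, both treatments and 5-aza-dC each include 1 of these 2 genes. Lone arrays were assumed to vary like the other groups. With the replicate block, 8 genes were called with TSA, 10 with both treatments and 6 with TSA in UHRF1-depleted cells, where FAS and PPM1D were lost. A replicate block within each siRNA gave 9 with TSA and 10 with TSA in UHRF1-depleted cells. With 5-aza-dC, spike-in scaling turned TP53I3 (-0.98), RRM2B (-0.64), FBXW7 (-0.83), AEN (-0.75), TRIAP1 (-1.03), PPM1D (-0.90) and RPS27L (-1.09), and normexp turned SPATA18 (-0.063). Spike-in scaling of the other gene lists was chosen after seeing the data. The causes were not tested. No block of slide and scan was possible, and the 5-aza-dC array could not be left out.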
